A study of Mus musculus with 24 samples.

Results

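The brush border is the carpet of microvilli on the luminal face of enterocytes, the absorptive cells that line the intestine. A module of 36 genes that build this surface, digest nutrients on it or carry the products across it was followed in the duodenum, ileum and colon of the mouse, out of 21441 genes in the deposited tables. The members are named by symbol, by a rule that itself uses no measured value, but they were chosen with earlier results of these data known. All 36 were found in every table used. They fall into 8 genes of sugar digestion and uptake, 13 of peptide and amino acid uptake, 8 peptidases, 5 genes of microvillus structure and 2 vitamin transporters.

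Digestion by pancreatic enzymes leaves short sugars and short peptides in the gut lumen, and membrane-bound enzymes of the brush border cut these to monosaccharides, amino acids and di- and tripeptides. Apical transporters then move the products into the cell, mostly together with sodium ions or protons, and a second set of carriers on the basolateral side releases them towards the blood. The small intestine is known for this work, while the colon mainly absorbs water, salts and products of bacterial fermentation.

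Poly(A) RNA was sequenced from the 3 tissues of wild type mice of the C57BL6J strain. The labels list 4 samples per tissue in the group 3xD, from mice of either sex given 3 injections of calcitriol, the hormone form of vitamin D, at 1 ng per g body weight 48, 24 and 6 h before the end, with ages of 10 to 14 in a unit that is not stated. Another 4 per tissue, also of either sex, form the vitamin D-deficient group minusD, with ages of 10 to 13 and no treatment given in their labels. The columns used held 4 libraries of 3xD and 4 of minusD in the duodenum and colon, and 4 and 3 in the ileum. The labels do not tie columns to single mice, nor say that the samples of a group came from separate mice, so p-values measure the spread between these libraries. The deficient columns include 3 per tissue named Vehicle, and the labels do not say whether those mice received one. Libraries are named here by their columns: 3xD 1 and Vehicle 1 to 3 carry serial numbers, and 3xD5711, 3xD5720, 3xD5734 and minusD5718 carry 4-digit numbers.

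Values were deposited as FPKM, fragments scaled to transcript length and library size, and are used as such within a tissue. Each tissue was normalized in a table of its own, so levels were re-expressed as TPM (each library scaled to the same total over all genes) wherever tissues are compared. Whole reads could be recovered from the steps between values for 82.6% of the genes seen in several libraries of each tissue. The reads of these genes came to 13074310 to 30240518 per duodenal library, 13156731 to 31112178 per ileal and 12254164 to 24185070 per colonic library, figures that leave out the other genes. The enterocyte markers Alpi, Apoa1, Apoa4, Fabp1, Fabp2, Rbp2 and Krt20 summed to 32104 to 47535 FPKM in duodenal, 10901 to 31419 in ileal and 954 to 1788 in colonic libraries.

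Some libraries held RNA of neighbouring organs or stood apart from the rest of their tissue. A list of 10 exocrine pancreas genes summed to 874 to 55110 FPKM over the duodenal libraries and to 28774 FPKM in colon 3xD5720, against 137 to 5562 FPKM in the other colon libraries. Stomach genes summed to 2735 to 5683 FPKM in the 4-digit duodenal libraries and to 7.21 to 13.2 FPKM in the serial ones. Ileum 3xD5720 had the lowest sum of the ileal list (4135 FPKM against 7381 to 12905) and a colon list sum of 2853 FPKM, where ileum Vehicle 3 had 542 FPKM and the other ileal libraries 55.0 to 145. Of the 5 genes on the ileal list, 3 were found, and they summed to 3472 to 5836 FPKM in colon libraries. Genes on it also went opposite ways. Across the ileal libraries, the Pearson correlation with the member Naaladl1 was 0.78 for Fabp6 and -0.78 for Slc10a2. In bulk tissue, fewer enterocytes and less RNA of a gene per enterocyte cannot be told apart.

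The members were far more abundant in both parts of the small intestine than in the colon. Together they made up 1.69% ± 0.39 (SD, n = 8) of the TPM total in the duodenum, 1.91% ± 0.44 (n = 7) in the ileum and 0.362% ± 0.068 (n = 8) in the colon. Duodenum and ileum divided this total differently. Sugar genes took 0.899% ± 0.245 of the total in the duodenum and 0.404% ± 0.098 in the ileum, while peptidases took 0.228% ± 0.024 and 0.854% ± 0.262. The lowest duodenal library for the sugar share lay at 0.683% and the highest ileal one at 0.532%, so that the groups did not overlap. For the peptidase share they did not overlap either, with 0.264% as the highest duodenal and 0.434% as the lowest ileal value, the latter in 3xD5720. Peptide and amino acid carriers took 0.137% ± 0.032 and 0.212% ± 0.055, with overlap, and microvillus genes 0.420% ± 0.097 and 0.438% ± 0.108. A share is set mostly by its most abundant members.

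**Figure D1:**
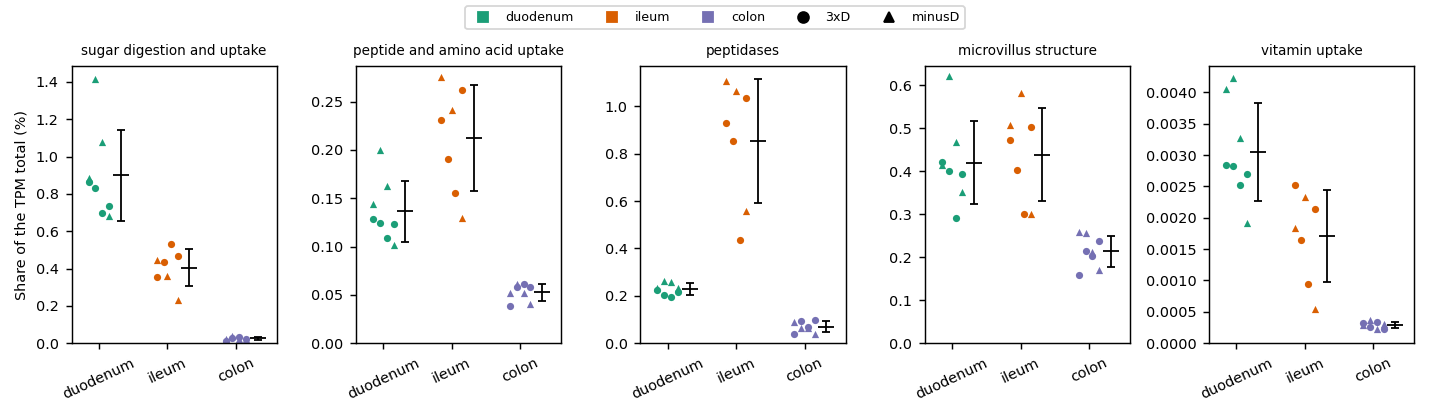
Share of each library's TPM total (%, vertical axes from 0, a different scale in each panel) taken by the members of each role in the duodenum (green), ileum (orange) and colon (purple). Circles are 3xD and triangles minusD libraries, and the black bar gives the mean and SD per tissue. Mean sugar shares are 0.899% (duodenum) and 0.404% (ileum), and the mean peptidase share 0.228% and 0.854%.

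Gene by gene, regions were compared with limma on log2(TPM + 1) in 1 fit of all 23 libraries, averaged over both treatments, with 14082 genes tested and Benjamini-Hochberg adjustment over all of them. A gene counts as called at an adjusted p under 0.05, and the added 1 makes the differences of low genes smaller than they are. All 36 members passed the filter of 1 TPM in 3 libraries. Between duodenum and colon, 29 members were called higher in the duodenum, where 11.7% of all genes were, and 5 lower, where 62% of all genes were. Between ileum and colon, 30 were called higher in the ileum (8.71% of all genes) and 4 lower (57.7%). Between duodenum and ileum the calls were even, with 11 members higher in the duodenum (12.9% of all genes) and 11 lower (18.4%). The median log2 difference of the members was 2.71, 2.68 and -0.19 in these 3 comparisons, beside -0.51, -0.44 and -0.09 for all genes tested.

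On the TPM scale the medians over all genes thus lay below 0. Scaling the libraries by median ratios instead brought these medians to 0.01, -0.01 and -0.01 and the calls over all genes to 31.1% higher and 28.7% lower for duodenum and colon, 21.9% and 20.9% for ileum and colon, and 20.5% and 17.2% for duodenum and ileum. The members' calls then became 29 higher and 5 lower, 30 and 2, and 14 and 11. No member called on the TPM scale changed its direction in any alternative setting.

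By which tissues differed, 10 members were highest in the duodenum, 10 highest in the ileum and 12 higher in both than in the colon with no call between them. Only 3 members (Slc1a5, Slc38a2 and Slc7a7) were highest in the colon, and Slc36a1 was lowest in the ileum. The 10 duodenal members comprise 7 of the 8 sugar genes, the amino acid carrier Slc7a8, the protease Tmprss15 and the thiamine carrier Slc19a3. The 10 ileal members comprise 6 of the 8 peptidases and the carriers Slc15a1, Slc1a1, Slc3a1 and Slc7a9. All 5 microvillus genes fell in the group with no call between duodenum and ileum.

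**Figure D2:**
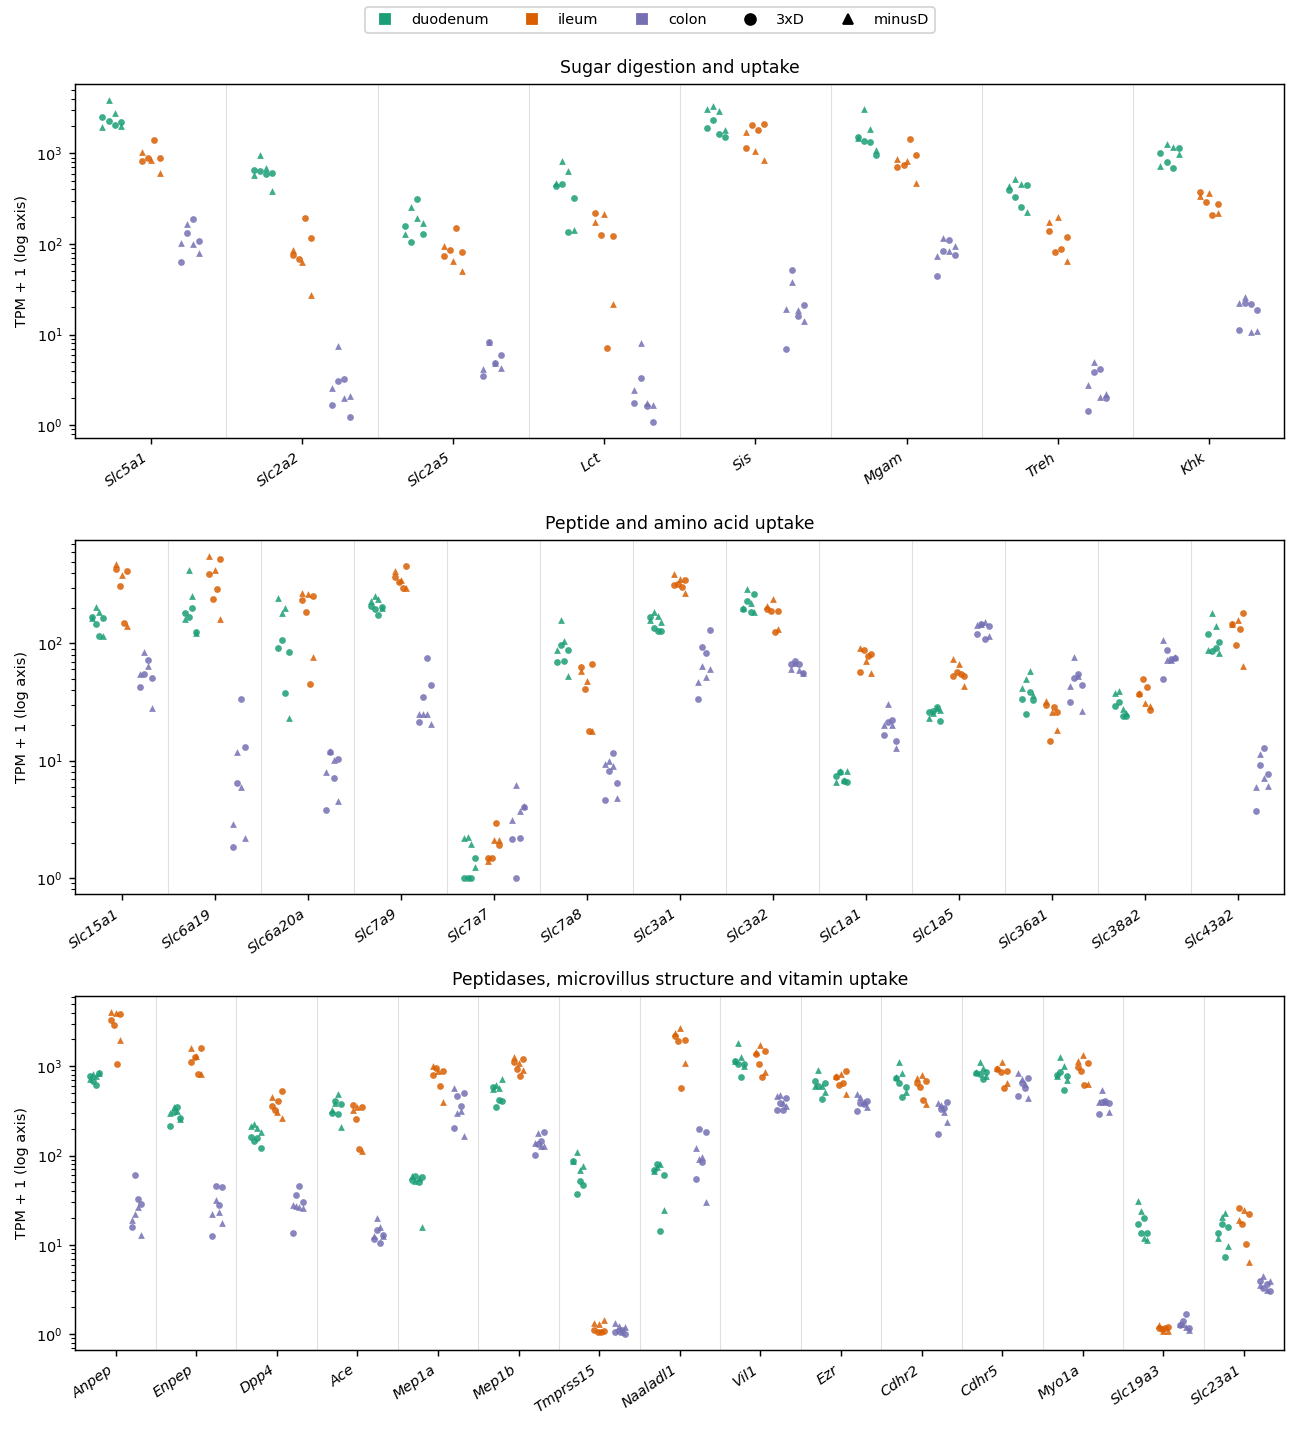
Level of each of the 36 members in every library, as TPM + 1 on a log axis, in the duodenum (green), ileum (orange) and colon (purple), with 3xD as circles and minusD as triangles. Most sugar genes step down from duodenum to ileum to colon, peptidases such as Anpep and Naaladl1 peak in the ileum, and Slc1a5 rises towards the colon.

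Promoter sequences of 4 members that show these patterns are printed from RefSeq (build GRCm38.p6), each as the 250 bases before the annotated start, read 5′ to 3′ on the gene's own strand. Sis was abundant in both small intestinal tissues, Lct stepped down along the gut, Tmprss15 was near 0 outside the duodenum and Slc3a1 was highest in the ileum. Capitals mark every match, on either strand, to letters bound by known intestinal transcription factors. HNF1 is represented by GTTAAT, a part of its site. The core of a site for the intestinal factor CDX2 is represented by TTTAT. A site for GATA factors is represented by AGATAA, and one for HNF4 by CAAAGTCCA. Matches to the CDX2 core and to the reverse of the GATA site can share letters, and a run of capitals may hold both.
Sis: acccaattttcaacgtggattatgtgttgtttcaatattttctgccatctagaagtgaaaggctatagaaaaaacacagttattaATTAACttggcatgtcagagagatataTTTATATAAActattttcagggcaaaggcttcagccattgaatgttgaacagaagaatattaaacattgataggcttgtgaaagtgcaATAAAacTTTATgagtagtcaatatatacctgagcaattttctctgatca
Lct: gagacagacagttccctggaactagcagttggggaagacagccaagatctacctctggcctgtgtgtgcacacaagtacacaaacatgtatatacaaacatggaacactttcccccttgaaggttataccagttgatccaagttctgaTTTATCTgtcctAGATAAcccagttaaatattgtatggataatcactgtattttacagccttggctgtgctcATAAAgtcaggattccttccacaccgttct
Tmprss15: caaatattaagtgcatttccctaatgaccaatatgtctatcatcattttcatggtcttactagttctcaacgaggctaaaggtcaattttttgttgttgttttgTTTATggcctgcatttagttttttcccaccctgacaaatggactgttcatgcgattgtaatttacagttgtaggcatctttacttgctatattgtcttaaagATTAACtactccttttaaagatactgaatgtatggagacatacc
Slc3a1: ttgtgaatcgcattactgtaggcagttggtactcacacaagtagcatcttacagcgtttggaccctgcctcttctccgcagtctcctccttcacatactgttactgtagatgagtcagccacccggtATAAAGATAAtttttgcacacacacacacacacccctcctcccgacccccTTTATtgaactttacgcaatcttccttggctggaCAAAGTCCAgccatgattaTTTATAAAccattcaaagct
These windows lie at chr3:72967864-72968113, minus strand (Sis), chr1:128328319-128328568, minus strand (Lct), chr16:79091098-79091347, minus strand (Tmprss15) and chr17:85028097-85028346, plus strand (Slc3a1).

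The Sis window holds 1 match to GTTAAT and 4 to TTTAT. The Lct window holds 2 matches to AGATAA and 2 to TTTAT, and none to GTTAAT. Tmprss15 has 1 match each to GTTAAT and TTTAT, and Slc3a1 has 4 to TTTAT, 1 to AGATAA and 1 to CAAAGTCCA. Of the 36 members, 32 had an entry in the table. GTTAAT was found before 7 of them (21.9%), beside 7.49% of 27025 genes in the table with windows of the same length. The corresponding counts were 14 (43.8%) beside 41.1% for TTTAT, 6 (18.8%) beside 11.4% for AGATAA and 2 (6.25%, Treh and Slc3a1) beside 0.451% for CAAAGTCCA. The 7 members with GTTAAT were Sis, Khk, Slc6a20a, Slc7a7, Slc36a1, Tmprss15 and Cdhr2, which differ in the tissue where they were highest. A match to these letters is a description of the sequence and was not tested for binding.

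Sugar genes were highest in the duodenum and low in the colon. Slc5a1 (chr5:33446868-33505521, plus strand; gene positions are on NCBIM37), the sodium-coupled carrier that takes up glucose and galactose, ran at 1977 to 3911 (median 2244) TPM in the duodenum, 612 to 1416 (median 892) in the ileum and 63.1 to 189.8 (median 104) in the colon. No library of one tissue reached into the range of the next. The log2 difference was 1.43 ± 0.21 (SE) between duodenum and ileum and 3.00 ± 0.21 between ileum and colon (limma, adjusted p = 2.55e-05 and 2.27e-10). Slc2a2 (chr3:28596825-28627278, plus strand), which lets glucose and fructose leave the cell on the basolateral side, dropped more steeply, from 388 to 953 (median 629) TPM to 26.3 to 192 (median 74.2) and 0.25 to 6.48 (median 1.37). Its duodenum minus colon difference of 7.94 ± 0.31 log2 was the largest of any member (limma, adjusted p = 6.21e-15). Slc2a5, the apical fructose carrier, lay at 104 to 309.7 (median 164) TPM, 49.3 to 148 (median 80.8) and 2.46 to 7.35 (median 3.85) in the same order, and duodenum and ileum overlapped. Khk, which phosphorylates fructose inside the cell, fell from 681 to 1257 (median 991) TPM in the duodenum to 209 to 371 (median 287) in the ileum and 9.79 to 25.3 (median 19.1) in the colon without overlap.

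The disaccharidases did not move as one. Sis (chr3:72692479-72771785, minus strand), which splits sucrose and short starch fragments, was the most abundant sugar gene of the ileum, at 855 to 2112 (median 1705) TPM beside 1522 to 3357 (median 2138) in the duodenum and 5.95 to 50.6 (median 17.8) in the colon. Its duodenum minus ileum difference of 0.66 ± 0.31 log2 did not pass (limma, adjusted p = 0.114). It passed with the library number as a block (adjusted p = 0.0334), after median-ratio scaling (0.0288), and without colon 3xD 1 (0.0498). In the minusD libraries alone it also passed, at 1.24 ± 0.34 (limma, adjusted p = 0.0256). In the 3xD libraries alone and in the serial libraries alone Sis did not pass. Mgam, the other starch-digesting enzyme, was called higher in the duodenum, at 958 to 3075 (median 1411) TPM against 472 to 1451 (median 814) in the ileum and 42.9 to 115 (median 83.2) in the colon. In the 3xD libraries alone the duodenum minus ileum calls of Mgam (0.46, limma, adjusted p = 0.292) and Slc2a5 (0.78, adjusted p = 0.151) were lost. Treh, which splits trehalose, lay at 223 to 525 (median 413) TPM, 63.6 to 199 (median 119.8) and 0.456 to 4.02 (median 1.51).

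Lct (chr1:130181333-130224895, minus strand), the enzyme that splits milk sugar, was among the members whose libraries of 1 tissue spread the widest. It lay at 135 to 817 (median 446) TPM in the duodenum, 6.15 to 219.8 (median 124) in the ileum and 0.0994 to 7.04 (median 0.776) in the colon. The duodenum minus ileum difference was 2.17 ± 0.65 log2 (limma, adjusted p = 0.0147), and this call was lost without ileum Vehicle 3 (1.64, adjusted p = 0.0533) and in the fits of single treatments. The wide ileal range comes from 2 libraries, 3xD5720 and Vehicle 3, which are described further on.

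Peptidases showed the opposite order in the small intestine. Anpep (chr7:86966689-86993096, minus strand), the aminopeptidase that removes neutral residues from peptide ends, was the most abundant member of the ileum at 1062 to 4044 (median 3332) TPM, beside 611 to 850.3 (median 782) in the duodenum and 12 to 59 (median 23.2) in the colon. The tissues did not overlap, and the log2 difference was -1.90 ± 0.27 for duodenum minus ileum and 6.84 ± 0.27 for ileum minus colon (limma, adjusted p = 1.66e-05 and 1.9e-14). Enpep, which removes acidic residues, followed the same order with 214 to 353 (median 303) TPM in the duodenum, 809 to 1614 (median 1259) in the ileum and 11.5 to 44.8 (median 24.8) in the colon. Dpp4, which cuts dipeptides after proline or alanine, lay at 120.4 to 227 (median 171) TPM, 265 to 529.6 (median 359) and 12.4 to 44.5 (median 26.5). Ace, the angiotensin-converting enzyme that also trims dietary peptides, was an exception among the peptidases, with 205 to 486 (median 349) TPM in the duodenum, 112 to 370.4 (median 324) in the ileum and 9.49 to 19 (median 11.6) in the colon. Its duodenum minus ileum difference of 0.48 ± 0.26 did not pass (limma, adjusted p = 0.171), but passed with the library block (0.035) and after median-ratio scaling (0.0375).

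Naaladl1 (chr19:6105782-6115792, plus strand), a peptidase related to the glutamate carboxypeptidases, had the sharpest rise from duodenum to ileum of any member. It ran at 13.3 to 80.4 (median 67.1) TPM in the duodenum, 563 to 2696 (median 1994) in the ileum and 29.5 to 197 (median 93.9) in the colon. The lowest ileal library, 3xD5720, still lay above every library of the other tissues. The log2 difference was -5.03 ± 0.44 for duodenum minus ileum (limma, adjusted p = 2.25e-08). Between duodenum and colon it was -0.86 ± 0.42 and missed the threshold (limma, adjusted p = 0.0708), but it passed with the library block (0.0037), without duodenum 3xD5711 (0.047), without colon 3xD 1 (0.033) and without colon Vehicle 3 (0.0245).

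Tmprss15 (chr16:78953253-79091342, minus strand), or enteropeptidase, which turns pancreatic trypsinogen into trypsin, was a duodenal gene in these data. It ran at 35.7 to 109 (median 72.2) TPM in the duodenum and at no more than 0.426 TPM in the ileum and 0.321 in the colon. The log2 difference was 5.79 ± 0.14 for duodenum minus ileum and 5.88 ± 0.13 for duodenum minus colon (limma, adjusted p = 3.68e-17 and 3.96e-18). No difference was called between ileum and colon, at 0.10 ± 0.14 (adjusted p = 0.553).

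The subunits of the meprins, metalloproteases that form homo- and heteromers, were distributed unequally. Mep1a (chr17:43611273-43639761, minus strand), the alpha subunit, ran at 15 to 58.2 (median 53.9) TPM in the duodenum, 396 to 1015 (median 882) in the ileum and 166 to 567 (median 335) in the colon, and it was the most abundant peptidase of the colon. It is the only peptidase called lower in the duodenum than in the colon (-2.81 ± 0.28 log2, limma, adjusted p = 2.41e-08). Mep1b, the beta subunit, lay at 345 to 720.1 (median 565) TPM, 774 to 1270.3 (median 1086) and 99.8 to 182 (median 136), and was lowest in the colon. The ratio of Mep1a to Mep1b within a library, which no scaling of libraries can change, had a geometric mean of 0.0899 in the duodenum (0.0208 to 0.168), 0.736 in the ileum (0.431 to 1.03) and 2.39 in the colon (1.32 to 4.13). The ranges of the 3 tissues did not overlap.

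Carriers for peptides and amino acids fell into several regional classes. Slc15a1 (chr14:121858841-121904475, minus strand), the proton-coupled carrier of di- and tripeptides, was highest in the ileum, at 141 to 478 (median 383) TPM beside 114 to 203 (median 164) in the duodenum and 27.3 to 83.6 (median 53.8) in the colon. The ileal libraries 3xD5720 and Vehicle 3 lay within the duodenal range and the other 5 above it. Slc6a19, the main apical sodium-coupled carrier of neutral amino acids and the most abundant carrier of this class in the ileum, ran at 121 to 426 (median 175) TPM, 159.9 to 557 (median 389.5) and 0.826 to 32.3 (median 5.19). Its duodenum minus ileum difference of -0.85 ± 0.48 did not pass (limma, adjusted p = 0.195). Slc6a20a, which carries proline, spread over 22.1 to 242 (median 97.6) TPM in the duodenum, 44.2 to 267 (median 236) in the ileum and 2.77 to 11 (median 8.11) in the colon. It did not pass between duodenum and ileum either (-0.78 ± 0.49, limma, adjusted p = 0.241) and was called lower in the duodenum with the library block (0.0425).

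Cystine and basic amino acids enter through a heterodimer of the carrier Slc7a9 and its glycoprotein partner Slc3a1, defects of which cause cystinuria. Slc7a9 (chr7:36234056-36251055, plus strand) lay at 173 to 253 (median 204) TPM in the duodenum, 294 to 461 (median 348) in the ileum and 19.5 to 74.3 (median 24.2) in the colon. Slc3a1 (chr17:85427687-85463583, plus strand) lay at 126 to 185 (median 154) TPM, 270.1 to 393 (median 319) and 32.3 to 128 (median 61.8). Both were called highest in the ileum, and the duodenal and ileal libraries did not overlap for either. The partners differed in how far they dropped in the colon, with ileum minus colon differences of 3.52 ± 0.18 for Slc7a9 and 2.34 ± 0.19 for Slc3a1. As a ratio within libraries, Slc7a9 to Slc3a1 had a geometric mean of 1.39 in the duodenum (1.22 to 1.60), 1.09 in the ileum (0.973 to 1.33) and 0.466 in the colon (0.326 to 0.914).

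On the basolateral side, Slc3a2 is the shared partner of Slc7a8 and Slc7a7, exchangers of neutral and of basic amino acids. Slc3a2 was the most abundant carrier of this class in the duodenum, at 185 to 289 (median 209) TPM beside 123 to 236 (median 187) in the ileum and 54.7 to 69.4 (median 62.4) in the colon. The step from duodenum to ileum passed only with the library block (0.0438) and after median-ratio scaling (0.00602), not in the fit without them (0.29 ± 0.13, limma, adjusted p = 0.109). Slc7a8 stepped down from 51.8 to 157 (median 87.4) TPM to 16.9 to 66.3 (median 47) and 3.58 to 10.5 (median 7.55). Its ratio to Slc3a2 was 0.395 in the duodenum (0.279 to 0.545), 0.217 in the ileum (0.128 to 0.355) and 0.106 in the colon (0.0541 to 0.162) as a geometric mean. Slc7a7 was near 0, at no more than 1.21 TPM in the duodenum, 1.92 in the ileum and 5.16 in the colon, and it is listed at 0 in 4 libraries. It was called lower in the duodenum than in the colon (-1.04 ± 0.23, limma, adjusted p = 0.000458). Its ileum minus colon call (-0.66 ± 0.24, adjusted p = 0.0209) was lost after median-ratio scaling (0.201), with a pseudocount of 0.1 (0.209), with FPKM as deposited (0.0532), without ileum Vehicle 1 (0.062) and without colon 3xD5734 (0.0516). In the 3xD libraries alone it was -0.15 (limma, adjusted p = 0.754).

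Slc1a1 and Slc1a5, both of the same family, differed in where they peaked. Slc1a1 (chr19:28909539-28988450, plus strand), the carrier of glutamate and aspartate, ran at 5.56 to 7.2 (median 6.13) TPM in the duodenum, 54.4 to 90.4 (median 76.6) in the ileum and 11.8 to 29.2 (median 19.1) in the colon, with no overlap between any 2 tissues. The duodenum minus ileum difference was -3.33 ± 0.16 log2 (limma, adjusted p = 2.1e-12). Slc1a5 (chr7:17366695-17383623, plus strand), an exchanger of glutamine and other neutral amino acids, increased along the gut from 20.6 to 27.5 (median 25.4) TPM to 42.1 to 73.3 (median 54) and 108 to 151 (median 142), also without overlap, and was the most abundant carrier of this class in the colon. Its duodenum minus colon difference was -2.38 ± 0.11 (limma, adjusted p = 5.75e-14). Slc38a2, a sodium-coupled carrier of small neutral amino acids found in most cells, lay at 22.9 to 38.6 (median 27.4) TPM in the duodenum, 26 to 48.4 (median 36.2) in the ileum and 49.1 to 105 (median 73.4) in the colon, and only the colon differed by test, except that duodenum and ileum did too with FPKM as deposited (limma, adjusted p = 0.0399). Slc36a1, a proton-coupled carrier, was lowest in the ileum, with 23.8 to 56.7 (median 36.6) TPM, 13.8 to 31.4 (median 25.2) and 25.7 to 76 (median 46.2). Its call between duodenum and ileum (0.65 ± 0.21, limma, adjusted p = 0.021) was lost without ileum Vehicle 3 (0.0618) and in fits of single treatments or of the serial libraries, and the one between ileum and colon (-0.89 ± 0.21, adjusted p = 0.0009) after median-ratio scaling (0.12) and in the serial libraries alone (0.281). Slc43a2, a carrier of large neutral amino acids, lay at 81.2 to 180.4 (median 95.5) TPM, 62.8 to 181 (median 146) and 2.72 to 11.8 (median 6.42).

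**Figure D3:**
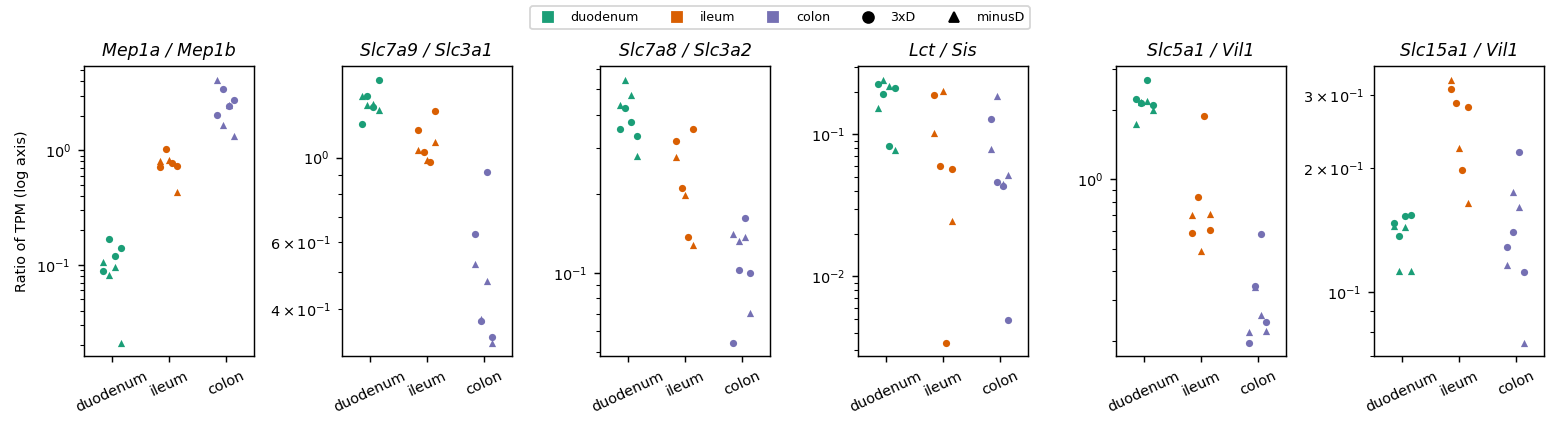
Ratio of the TPM of 2 members within each library (log axis) in the duodenum (green), ileum (orange) and colon (purple), circles for 3xD and triangles for minusD. Mep1a relative to Mep1b is 0.0899 in the duodenum and 2.39 in the colon, whereas Slc7a9 relative to Slc3a1 goes from 1.39 to 0.466 and Slc7a8 relative to Slc3a2 from 0.395 to 0.106.

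The genes of the microvillus itself had smaller differences between tissues than most other members. Vil1 (chr1:74455950-74482133, plus strand), which bundles the actin core, lay at 754 to 1802 (median 1101) TPM in the duodenum, 751 to 1709.8 (median 1388) in the ileum and 323 to 479 (median 386) in the colon. Myo1a, the motor that ties the core to the membrane, lay at 535 to 1277 (median 792) TPM, 615 to 1350.5 (median 982) and 294 to 541 (median 398), and Ezr, which links actin to membrane proteins, at 429 to 904 (median 606) TPM, 488 to 896 (median 763) and 317 to 484 (median 390.02). The cadherins that join microvilli at their tips, Cdhr2 and Cdhr5, lay at 456 to 1116 (median 695) and 726 to 1117 (median 854) TPM in the duodenum and at 172 to 396 (median 336) and 436 to 848 (median 640.5) in the colon. In the ileum the values were 373 to 807 (median 653) for Cdhr2 and 564 to 1126 (median 884) for Cdhr5. All 5 were called higher in each small intestinal tissue than in the colon, by 0.48 (Cdhr5) to 1.52 (Vil1) log2 for duodenum minus colon. Cdhr5 was the most abundant of them in the colon, and its ileum minus colon call (0.44 ± 0.15, limma, adjusted p = 0.0171) was lost without ileum Vehicle 2 (0.0618) and in minusD (0.107) and 3xD libraries alone (0.0958). Its duodenum minus colon call was likewise lost in minusD (0.0549) and 3xD libraries alone (0.0623). Between duodenum and ileum the 5 differences ran from -0.20 (Ezr) to 0.21 (Cdhr2), and none passed, although Ezr did with FPKM as deposited (limma, adjusted p = 0.0235).

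Carriers were also set against Vil1 within each library. Slc5a1 to Vil1 had a geometric mean of 2.14 in the duodenum (1.73 to 2.70), 0.753 in the ileum (0.488 to 1.89) and 0.282 in the colon (0.196 to 0.581). The highest ileal value was that of 3xD5720, which reached the duodenal range. Slc15a1 to Vil1 was 0.137 in the duodenum (0.112 to 0.154), 0.249 in the ileum (0.164 to 0.327) and 0.135 in the colon (0.0753 to 0.219), and the colonic range spans the duodenal one. The Lct to Sis ratio was 0.163 in the duodenum (0.0778 to 0.243), 0.0526 in the ileum (0.00339 to 0.202) and 0.0507 in the colon (0.00493 to 0.188), with overlap among all tissues. These pairs were chosen with the values known, and no test was made of them.

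Of the vitamin carriers, Slc19a3 (chr1:83009098-83035023, minus strand), which takes up thiamine, was, like Tmprss15, near 0 outside the duodenum. It ran at 10.4 to 29.6 (median 14.2) TPM in the duodenum and at no more than 0.272 TPM in the ileum and 0.685 in the colon, a difference of 3.85 ± 0.18 log2 for duodenum minus ileum (limma, adjusted p = 1.21e-12). Slc23a1, which takes up ascorbate, lay at 6.29 to 21.9 (median 13.6) TPM, 5.43 to 25.1 (median 18.2) and 2.05 to 3.48 (median 2.59), with no call between duodenum and ileum.

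Library numbers recur across tissues, and libraries of the same number deviated from their group means together in 7 of 7 pairs of duodenum and ileum. With the number as a block, 14 members were called higher and 12 lower between these tissues, beside 2243 and 3184 of 14082 genes. Without the block those counts over all genes were 1823 and 2592. The added members were Ace, Sis, Slc3a2 and Slc6a20a, which stand above among those with no call between these tissues. Leaving out single libraries left 29 members higher and 5 or 6 lower for duodenum and colon, 9 to 12 higher and 11 lower for duodenum and ileum, and 29 or 30 higher and 3 or 4 lower for ileum and colon. Without ileum 3xD5720 the counts were 29 and 5, 11 and 11, and 30 and 4. In the 3xD libraries alone, 6 members were called higher and 10 lower between duodenum and ileum, beside 834 and 1314 of 13581 genes. The minusD libraries alone gave 9 and 10 (1249 and 959 of 13665 genes). The serial libraries alone gave 7 and 10 (795 and 745 of 13695 genes).

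Calcitriol was the treatment under study, and the second comparison asks whether it changed these genes within a tissue. No member passed in any tissue in limma on log2(FPKM + 1) with adjustment over all genes tested. The filter of 1 FPKM in 3 libraries left 35 members in the duodenum (without Slc7a7), 33 in the ileum (without Slc7a7, Tmprss15 and Slc19a3) and 33 in the colon (without Lct, Tmprss15 and Slc19a3). Few other genes passed. In the duodenum 0.00852% of 11734 genes were called higher and 0.017% lower, and 0% of 12149 genes in the ileum and of 12746 in the colon were called. At an unadjusted p under 0.05 there were 1, 0 and 3 members in the duodenum, ileum and colon, beside 9.4%, 5.84% and 5.85% of all genes. Voom on the recovered reads, which could be had for 28, 27 and 27 members, called 0 in each tissue.

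The members' median log2 difference, 3xD minus minusD, was -0.06 in the duodenum, 0.01 in the ileum and 0.05 in the colon, beside 0.01, 0.01 and -0.01 over all genes tested. Differences were positive for 11 of 35, 17 of 33 and 22 of 33 members. On the TPM scale, which moved the median of all genes to -0.15, 0.02 and -0.14, the members' medians were -0.24, 0.02 and -0.09, so the sign turned in the colon with the scale. The precision was moderate. The 95% interval reached a median of 0.46 log2 to either side in the duodenum, 0.59 in the ileum and 0.65 in the colon, and it stayed within a 2-fold change both ways for 30 of 35, 21 of 33 and 23 of 33 members. Deficient libraries mostly carry serial and treated libraries mostly 4-digit numbers, so the naming scheme and the treatment overlap. The 4-digit libraries also held fewer recovered reads (12254164 to 15276159) than the serial ones (18863113 to 31112178). The part of this depth in the differences with calcitriol was not tested. Within schemes the members' median was -0.05 (serial) and 0.11 (4-digit) in the duodenum, 0.08 (serial) in the ileum, where all deficient libraries are serial, and -0.20 (serial) and 0.11 (4-digit) in the colon.

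**Figure D4:**
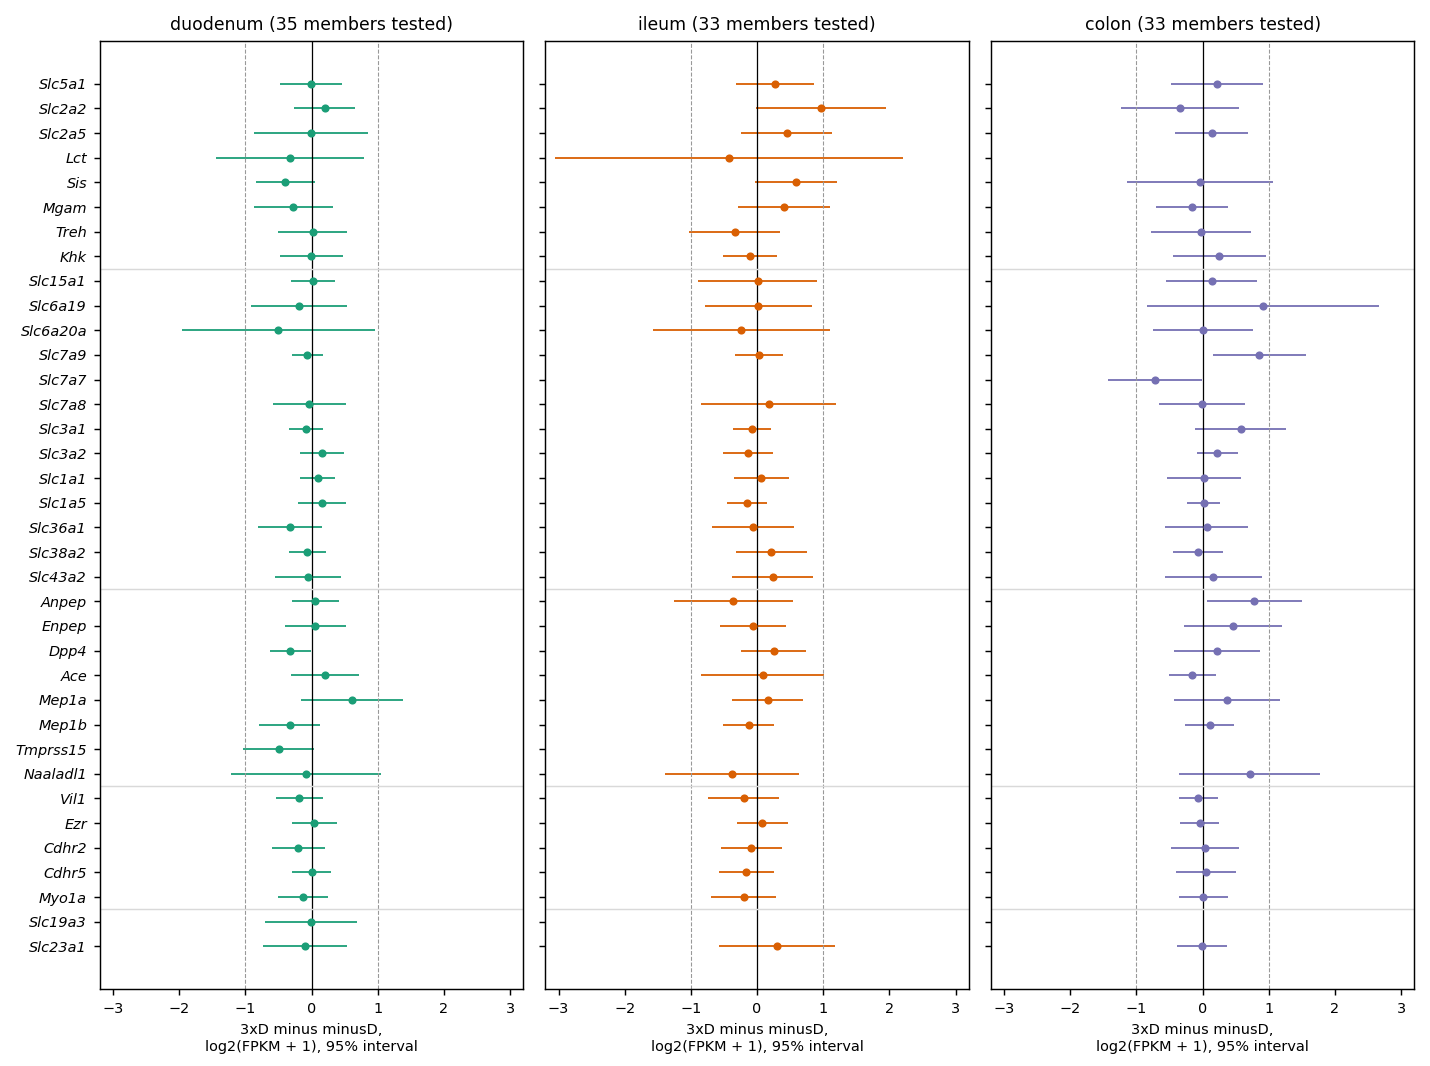
Difference between 3xD and minusD libraries in log2(FPKM + 1) with its 95% interval, for each member that passed the filter in the duodenum, ileum and colon, ordered by role. Dashed lines mark a 2-fold change either way. Most intervals include 0, those of Lct in the ileum and Slc6a19 in the colon are the widest, and no member passed after adjustment.

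In the duodenum the 3 members with the smallest p-values all had lower means in the treated group. Dpp4 had 109, 97.4, 136 and 90.5 FPKM in 3xD 1, 3xD5711, 3xD5720 and 3xD5734, and 138, 129, 136 and 132 in minusD5718 and Vehicle 1, 2 and 3. One treated library, 3xD5720, lay among the deficient ones and the other 3 lay below them. The difference was -0.32 ± 0.14 log2 (limma, adjusted p = 0.526). For Tmprss15 the treated libraries, in the same order, had 57.9, 23.8, 44 and 34.5 FPKM and the deficient ones 54.6, 62.2, 46.1 and 55.3, a difference of -0.50 ± 0.24 (limma, adjusted p = 0.537). The 3 treated libraries with 4-digit numbers were lower than all deficient ones, and 3xD 1 was not. Within the serial libraries, with 1 treated, the Tmprss15 difference was 0.09, and within the 4-digit ones, with 1 deficient, it was -0.71. The 4-digit libraries are also those with the stomach genes named above. Among them the deficient minusD5718 had the highest stomach sum (5683 FPKM) and 54.6 FPKM of Tmprss15. The part of the stomach genes in the Tmprss15 difference was not tested. Sis, with 1303, 1576, 1423 and 1144 FPKM in treated and 1984, 1910.4, 2002 and 1319 in deficient libraries, differed by -0.40 ± 0.20 (limma, adjusted p = 0.545). Its low deficient library was Vehicle 3. None of the 35 members had groups that did not overlap, beside 1.99% of all genes higher and 2.38% lower.

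In the ileum the leading members were sugar genes with higher means after calcitriol, and each rested on few libraries. Slc2a2 had 53.6, 48.5, 158 and 80.4 FPKM in the treated and 55.1, 41.8 and 24.4 FPKM in Vehicle 1, 2 and 3. Most of the gap lies in the high 3xD5720 and the low Vehicle 3, and the difference of 0.97 ± 0.43 log2 (limma, adjusted p = 0.706) became 0.62 without the former and 0.65 without the latter. For Sis the treated libraries had 838, 1478, 1494 and 1461 FPKM and the deficient ones 1119, 706 and 794. The 3 treated libraries with 4-digit numbers were high, while the serial 3xD 1 lay among the serial deficient ones. The difference was 0.58 ± 0.27 (limma, adjusted p = 0.706). With the naming scheme as a covariate it was -0.03. All deficient ileal libraries are serial, so that value rests on 3xD 1 alone and cannot tell the scheme from this 1 library. Slc2a5, with 52.1, 60.0, 122 and 55.9 FPKM against 62.2, 43.1 and 45.8, differed by 0.44 ± 0.30 (limma, adjusted p = 0.708) and by 0.17 without 3xD5720. None of the 33 tested members had groups that did not overlap (3.35% of all genes higher, 3.21% lower). Tmprss15, below the filter at 0.0293 to 0.0885 FPKM in treated and 0.208 to 0.395 in deficient libraries, did not overlap at levels near 0.

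In the colon, Slc7a9 was the only tested member whose groups did not overlap, beside 2.22% of all genes that were higher without overlap and 2.32% that were lower. It had 15.8, 20.4, 52.3 and 26.8 FPKM in 3xD 1, 3xD5711, 3xD5720 and 3xD5734, and 15.2, 14.3, 14.3 and 12.2 in minusD5718 and Vehicle 1, 2 and 3. The lowest treated library lay just above the highest deficient one. The difference was 0.85 ± 0.31 log2 (limma, adjusted p = 0.846). Its highest value was in 3xD5720, the colon library with 28774 FPKM of pancreas genes, and without that library the difference was 0.53. The part of the pancreatic RNA in it was not tested. Anpep had 11.6, 35.1, 22.4 and 17.2 FPKM in treated and 11.2, 12.5, 14.9 and 7.52 in deficient libraries, a difference of 0.78 ± 0.32 (limma, adjusted p = 0.846) that was 0.52 without 3xD5711. Slc7a7, at 0.887, 0, 0.831 and 1.86 FPKM against 1.33, 3.07, 1.6 and 1.94, differed by -0.72 ± 0.31 (limma, adjusted p = 0.846) at levels of a few FPKM at most, and by -0.44 without 3xD5711, where it is listed at 0.

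The most abundant member of each role in the tissue showed how the libraries of the 2 groups lay. Vil1 in the duodenum had 771, 713, 656 and 796 FPKM in treated and 735, 1026, 865 and 736 in deficient libraries, with a difference of -0.18 ± 0.16 log2. Slc5a1 in the duodenum had 1708, 1522, 1771 and 1661 FPKM against 1274, 2226, 1882 and 1468, a difference of -0.01 ± 0.20 with a 95% interval of 0.46 to either side. Both groups had their values in the same range. Slc3a2 in the duodenum had 132, 153, 162 and 198 FPKM against 128, 164, 148 and 135 (0.15 ± 0.15). Slc19a3 in the duodenum had 10.8, 8.32, 16.4 and 9.3 FPKM against 19.1, 13.1, 7.33 and 7.55 (-0.01 ± 0.31), with the highest library in the deficient group. Anpep in the duodenum had 533, 451, 532 and 636 FPKM against 459, 464, 526 and 618 (0.06 ± 0.16).

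For the ileum, Anpep had 2409, 2043, 875 and 2633 FPKM in treated and 2655, 2674 and 1828 in deficient libraries (-0.36 ± 0.39), with 3xD5720 far below the rest. Slc6a19 had 282, 168, 237 and 362 FPKM against 366, 285 and 148 (0.02 ± 0.35), Vil1 1004, 761, 618 and 1018 against 959.9, 1145 and 799 (-0.20 ± 0.23), and Slc23a1 18.2, 11.6, 7.57 and 14.7 against 11.9, 15.6 and 5.04 (0.30 ± 0.38). The groups overlapped for each of these. For the colon, Slc1a5 had 92.1, 86, 75.9 and 87.5 FPKM against 90.1, 86.8, 89.1 and 72.4 (0.01 ± 0.11, 95% interval 0.26 to either side). Cdhr5 had 363, 390.4, 406 and 459.5 FPKM against 533, 425, 368 and 273 (0.05 ± 0.20) and Mep1a 157, 276, 250.05 and 311 against 356, 176, 186 and 104 (0.37 ± 0.36). Slc5a1 had 49, 78.3, 134 and 65.6 FPKM against 63.7, 97.5, 59.1 and 49.7 (0.22 ± 0.31) and Slc23a1 2.24, 1.34, 1.86 and 1.27 against 1.6, 2.07, 1.25 and 1.83 (-0.01 ± 0.17). Again each pair of groups overlapped.

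Whether the response differed between tissues was tested as an interaction in the fit of all tissues, and 0 members were called, beside 0% of 14082 genes for each pair of tissues. At an unadjusted p under 0.05 there was 1 member for duodenum against colon (1.53% of all genes), 0 for duodenum against ileum (4.5%) and 2 for ileum against colon (3.46%). The smallest p belonged to Slc7a9, with a difference in response of -0.98 ± 0.34 for duodenum minus colon (limma, adjusted p = 1). Slc2a2 had 1.47 ± 0.64 for ileum minus colon (limma, adjusted p = 0.941).

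Some differences between libraries of the same group recurred in both small intestinal tissues. Lct had 118 FPKM in duodenum 3xD5720 and 103 in duodenum Vehicle 3, below the 242 to 465 of the other 6 duodenal libraries. In the ileum the libraries of the same numbers had 5.06 and 19.5 FPKM, below the 83.4 to 159 of the other 5. Slc6a20a was likewise lowest in these libraries, at 31.7 and 16.1 FPKM in the duodenum (others 60.9 to 156) and 36.4 and 69.5 in the ileum (others 131 to 176). Naaladl1 had 11.6 and 17.2 FPKM in the duodenum (others 41.8 to 54.0) and 464 and 1008 in the ileum (others 1374 to 1805). One of these libraries is treated and the other deficient. Over the 7 numbers present in both tissues, 3xD5720 and Vehicle 3 were the lowest pair in both for 6 of 33 members expressed in both (Lct, Slc6a20a, Naaladl1, Cdhr2, Myo1a and Slc23a1), beside 2.4% of 11433 genes. The pair was the highest in both tissues for 0 members, beside 2.61% of all genes. This pair was picked after its values were seen, so the counts are a description.

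**Figure D5:**
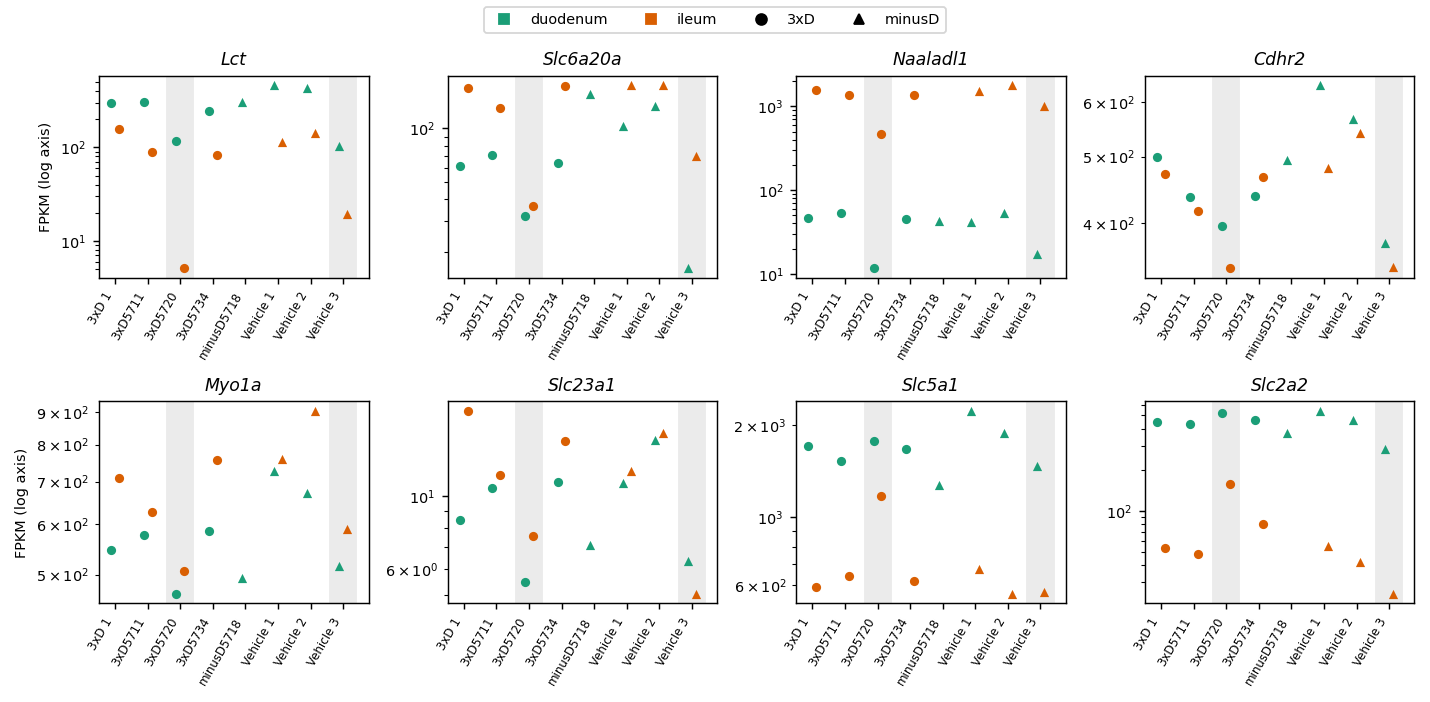
FPKM (log axes) of 8 members in each duodenal (green) and ileal (orange) library, circles for 3xD and triangles for minusD, with grey bands at 3xD5720 and Vehicle 3. Lct, Slc6a20a and Naaladl1 are lowest in the banded libraries in both tissues, while Slc5a1 and Slc2a2 are highest in ileum 3xD5720.

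Slc5a1, Slc2a2, Slc2a5, Sis and Mgam were instead highest of the ileal libraries in 3xD5720, while Khk was lowest there. Slc5a1 stood at 1166 FPKM against 559 to 673 in the other ileal libraries, and Slc2a2 at 158 FPKM against 24.4 to 80.4. In Vehicle 3, by contrast, the sugar share was the lowest of its tissue in both duodenum (0.683%) and ileum (0.232%), and Slc2a2 was lowest as well, at 282 and 24.4 FPKM. Ileum 3xD5720 also had the lowest enterocyte sum of the ileum (10901 FPKM) and the highest colon list sum (2853 FPKM). Its sum of a list of duodenal genes was the highest of the ileum too, at 76.2 FPKM (others 19.9 to 31.6). That list summed to 60.7 to 151 FPKM in colon libraries and 199 to 390 in duodenal ones. The sum of cycling crypt cell genes was also the highest of the ileum in 3xD5720 (197 FPKM). The part of these in its levels was not tested. Across the 7 ileal libraries, levels of Lct and Slc6a20a had a Pearson correlation of 0.98 and those of Lct and Naaladl1 0.97, beside a median of 0.24 over all pairs of members. Across the 8 duodenal libraries the values were 0.90, 0.89 and 0.23. Vil1 and Myo1a had 0.92 in the duodenum and 0.96 in the ileum. Lct and Slc5a1, in contrast, had 0.38 in the duodenum and -0.76 in the ileum. These correlations describe a few libraries of both treatments and both naming schemes, and pairs were picked for their values.

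Over all members, the library that departed most from the mean of its tissue was colon Vehicle 3, with a median deviation of -0.35 log2 and 4 of 33 members above the mean. The same number was low in the other tissues, at -0.23 with 4 of 33 above in the ileum and -0.18 with 9 of 35 above in the duodenum. In the colon, 3xD 1 followed at -0.34, with 6 of 33 above, and it had the highest smooth muscle sum of the colon (3603 FPKM, others 740 to 2958). At the other end stood colon Vehicle 1 at 0.27 and duodenum Vehicle 1 at 0.24. The median deviation of all genes stayed between -0.0074 and 0.021 in every library. Of the colon libraries at the low end, 1 is treated and 1 deficient.

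A wider list of 65 genes of the same pathways, of which 61 were found, gave the surrounding picture. With calcitriol 0 of 54, 56 and 51 tested genes passed in the duodenum, ileum and colon. An unadjusted p under 0.05 was found for 3, 2 and 2 of them, beside 9.4%, 5.84% and 5.85% of all genes. Their median differences were -0.08, -0.07 and -0.01. The smallest p in the duodenum was that of Slc37a4, which carries glucose 6-phosphate into the endoplasmic reticulum, with 0.86 ± 0.33 log2 (limma, adjusted p = 0.503), ahead of Myo1e at -0.40 ± 0.17 and Anks4b at -0.28 ± 0.12. In the ileum Cndp2, a cytosolic dipeptidase, had -1.45 ± 0.39 (adjusted p = 0.706), with Slc19a2 at 0.78 ± 0.30 and Fbp1 at 0.99 ± 0.45. In the colon Fbp1, an enzyme of gluconeogenesis, had 1.22 ± 0.29 (limma, adjusted p = 0.619), with Slc23a2 at -0.67 ± 0.24 and Slc1a4 at -0.47 ± 0.22.

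By region, 60 genes of the wider list were tested. In the duodenum 35 were called higher and 15 lower than in the colon, beside 11.7% and 62% of all genes. Between ileum and colon 32 were higher and 13 lower (8.71% and 57.7% of all genes). Between duodenum and ileum 11 were higher and 15 lower in the duodenum (12.9% and 18.4% of all genes). Slc6a14, a broad amino acid carrier, had the largest difference and was the reverse of most members, at 0.0782 to 5.64 (median 0.508) TPM in the duodenum, 1.73 to 28 (median 12.2) in the ileum and 245 to 603 (median 527) in the colon (-7.91 ± 0.38 for duodenum minus colon, limma, adjusted p = 2.39e-13). Mme, the peptidase neprilysin, ran at 62.4 to 419 (median 256) TPM in the duodenum, 2.08 to 97 (median 37.5) and 0 to 3.24 (median 0.948). The sugar carriers Slc2a7 (5.78 ± 0.27) and Slc5a11 (5.78 ± 0.39) and the glucose-releasing enzyme G6pc (5.54 ± 0.57) followed among the genes higher in the duodenum than in the colon.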

How the data were processed

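Per the labels' protocols, mouse duodenum, ileum and colon were measured by RNA-seq of poly(A) RNA with a kit of the NEBNext Ultra II type. The authors deposited 1 FPKM table per tissue and set of libraries, per the file headers. CLC Genomics Workbench is named in the labels' protocols, and kallisto 0.45.0, DESeq 1.14.0, DESeq2 and the build mm9 are named in the submitters' processing notes, with no role given. Since the deposited 8-library table of the ileum repeats that of the duodenum (171528 of 171528 values are equal), ileal values come from the 7-library table and its library minusD5718 was not analysed here. Columns named Vehicle were taken as the deficient group, by the comparison that names the table.

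Within a tissue, limma 3.58.1 (R 4.3.3) was run on log2(FPKM + 1) of genes with at least 1 FPKM in 3 libraries. Between tissues, and for differences in response, 1 limma fit took all 23 libraries as log2(TPM + 1), TPM being recomputed from FPKM, with the same filter in TPM. P-values were adjusted by Benjamini-Hochberg over all genes tested, with a threshold of 0.05, and errors beside log2 differences are SE. Whole reads were taken as recovered within a tolerance of 1e-04. The fits were also run on simulated data with changes of known size and independent noise in each library. Those data hold no shared library numbers and no RNA of neighbouring organs, and no result above rests on them. Ratios, shares and correlations are descriptions made with Python 3.11.15.

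Members and lists were chosen with earlier results of these data known. Values in every library are given for members without overlap of the groups, for the 3 smallest p in each tissue and for the most abundant member of each role; the others are given by range and count. In the wider list, the 3 smallest treatment p per tissue and the 5 largest duodenum minus colon differences are named. Library numbers recur between tissues. Deviations of same-numbered libraries from their group means correlated above 0.1 in 7 of 7 pairs of duodenum and ileum (lowest 0.13), 7 of 8 of duodenum and colon (lowest -0.03) and 6 of 7 of ileum and colon (lowest 0.062). A block on the number, over all 3 tissues, was run as an alternative only. The fit behind the regional calls and classes has no block and treats the libraries as independent. Alternatives were pseudocounts of 0.1 and 0.5, other filters and scalings, the naming scheme as a covariate, single treatments or schemes, the library block, voom on recovered reads, the 7-library tables and each library left out.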

Additional observations from a re-analysis of the deposited data

Results flagged for a closer look

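In groups of 4 libraries, 11 of 180 combinations of member, tissue and treatment held a library set far apart from the other 3 by Dixon's criterion, where chance alone gives about 1 in 20. Colon Vehicle 1 was the high library for 4 members: Slc2a2 at 3.85 FPKM (others 0.588 to 1.01), Slc2a5 at 4.37 (2.02 to 2.28), Lct at 4.19 (0.429 to 0.896) and Slc43a2 at 6.19 (3.13 to 3.59). Its exocrine pancreas sum was 5562 FPKM, the highest of the deficient colon libraries. Colon Vehicle 3 followed at 4493 FPKM and was not the high library for any of these members. The part of the pancreatic RNA in these values was not tested. Ileum 3xD5720 was the high library for Slc5a1 at 1166 FPKM (others 589.6 to 640.4) and for Slc2a5 at 121.9 FPKM (52.1 to 60.04). It is also the ileal library with the lowest enterocyte sum and the highest sums of the colon list and of the list of duodenal genes. Its duodenal list sum, 76.2 FPKM, lies within the 60.7 to 151 FPKM of that list in colon libraries.

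Sis was low in duodenum Vehicle 3, at 1319 FPKM against 1910.4 to 2002 in the other deficient libraries, and in ileum 3xD 1, at 838 FPKM against 1461 to 1494 in the other treated ones. Slc15a1 stood at 50.3 FPKM in colon 3xD5720 (others 30.6 to 32.2), the colon library with the highest pancreas sum. Slc36a1 stood at 38.3 FPKM in duodenum Vehicle 2 (others 25.8 to 27.7). Slc7a7 had 0.355 FPKM in duodenum 3xD5734 and is listed at 0 in the other 3 treated duodenal libraries.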

How the results depend on the processing

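Totals of called members stayed within 1.5 times in the settings run, and no call between tissues reversed. Split by direction, members called higher in the duodenum than in the ileum went from 11 to 6 in 3xD libraries alone and to 7 in serial libraries alone, and members called lower in the ileum than in the colon from 4 to 2 after median-ratio scaling. Among values between tissues, 3290 stayed on their side of the threshold, 31 lost a call, 15 gained one and 12 moved without a call. Of the calcitriol values, 182 moved and 1551 did not, with no call in any setting. Over all genes, median-ratio scaling moved the share called higher from 11.7% to 31.1% for duodenum against colon and from 8.71% to 21.9% for ileum against colon, and the share called lower from 62% to 28.7% and from 57.7% to 20.9%. Fits of a single treatment or of the serial libraries hold fewer samples, and there Lct between duodenum and ileum lost its call (adjusted p = 0.116 in 3xD, 0.0949 in minusD and 0.362 in serial libraries, limma), as did Slc36a1 and Slc7a8. Mgam, Slc2a5 and Slc7a9 lost theirs in 3xD libraries alone, Slc15a1 in minusD and in serial libraries alone, and Treh in serial libraries alone. Mep1a lost its call between ileum and colon in minusD libraries alone (adjusted p = 0.0578). With the replicate block, the library number shared between tissues, 35 members were called between duodenum and colon, 26 between duodenum and ileum and 34 between ileum and colon, beside 34, 22 and 34 without it, and 0 for differences in response either way. Over all 14082 genes, calls between duodenum and ileum also went from 1823 to 2243 higher and from 2592 to 3184 lower with the block. Leaving out single libraries gave 34 to 35, 20 to 23 and 33 to 34 calls, and 0 for calcitriol and for differences in response. No paired analysis was possible within a tissue because treated and deficient libraries share no number there that labels tie to a mouse or batch. The values of 4-digit libraries alone could not be had in the ileum, where no deficient library carries such a number. The 95% intervals given above hold for single genes, and larger differences than their half-widths, such as that of Slc7a9 in the colon, did not pass after adjustment over all genes.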
